A study of Mus musculus with 2 samples.

Results

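Cycling T cells are T cells that hold transcripts of the cell division machinery. Here they were the barcodes of a CD45-sorted tumour infiltrate that held at least 2 unique molecular identifiers (UMIs, counted transcript molecules) of the CD3 genes Cd3e, Cd3d and Cd3g together, at least 2 of Mki67 and Top2a together, and none of the natural killer cell gene Ncr1. The rule found 197 cycling T cells among 5833 kept barcodes of the thonzonium bromide library and 227 among 6419 of the PBS library, 424 of 12252 in all. They made up 15.6% of the 1263 T cells with thonzonium bromide and 15% of the 1514 with PBS.

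The infiltrate came from subcutaneous tumours that MFC cells, a mouse forestomach carcinoma line, had formed in wild-type BALB/c mice. Mice were given thonzonium bromide, a cationic surfactant, at 50 mg/kg every other day from day 6, or PBS, and were killed on day 10. Each group is 1 library of CD45-sorted cells made with a 10x Genomics 3' kit, and the number of mice in a library is not given. With 1 library in a group, differences between the libraries were not tested and have no replicate check, and 95% intervals are of counting error alone.

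Resting T cells leave quiescence after antigen and cytokine signals and then pass through DNA replication and mitosis as a clone expands. E2F factors drive the genes of replication origin licensing and nucleotide synthesis, and the MuvB complex with B-Myb and FoxM1 drives the later mitotic genes through an element called CHR. Mki67 encodes the Ki-67 protein of the chromosome surface, Top2a a topoisomerase that untangles DNA, Pclaf a PCNA-binding factor, Stmn1 a microtubule destabiliser and Nusap1 a spindle protein. In tumours, dividing T cells include CD8+ cells that carry inhibitory receptors and Foxp3+ regulatory cells.

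Cycling T cells held medians of 13367 UMIs with thonzonium bromide and 10521 UMIs with PBS, against 6100 and 4356 UMIs in T cells with neither Mki67 nor Top2a, called non-dividing here (888 and 1043 cells). No member barcode occurred in both libraries, out of 14 shared barcodes among all those deposited. Some members also held transcripts of other cell types. At least 3 UMIs of B cell, macrophage, dendritic, neutrophil or tumour and stroma markers, or at least 100 haemoglobin and Alas2 UMIs, were found in 48 of 197 members with thonzonium bromide and 19 of 227 with PBS. Macrophage markers summed to 845 CPM (UMIs scaled to a total of 1000000 in each set of cells) over all members with thonzonium bromide and 69.9 CPM with PBS, with all 7 of 7 markers detected in each library. In the 149 and 208 members left without the mixed barcodes they summed to 37.7 and 41.9 CPM. Erythroid markers summed to 3919 CPM with thonzonium bromide and 3217 CPM with PBS, and to 62.9 and 307 CPM without the mixed barcodes. Tumour and stroma markers reached 50 UMIs in 3 members with thonzonium bromide and 4 with PBS. Those barcodes held 62090 to 154129 UMIs in the thonzonium bromide library and 69466 to 157719 in the PBS library, at most 4 CD3 UMIs each, and at most 1 UMI of the T cell receptor gene Trac. Levels below are therefore given over the 149 and 208 members without mixed barcodes unless all members are named, and how far the mixed barcodes are doublets was not tested. Natural killer markers did not enter the rule for mixed barcodes. At least 3 UMIs of Klrb1c, Klre1, Klra8 and Eomes together were found in 101 members with thonzonium bromide and 114 with PBS. They summed to 277 and 318 CPM over all members, 276 and 311 CPM in non-dividing T cells, and 346 and 375 CPM without mixed barcodes. Whether some members are natural killer cells without an Ncr1 UMI was not tested. Each of the 149 remaining members with thonzonium bromide held a T cell receptor constant transcript (Trac, Trbc1 or Trbc2), as did 205 of the 208 with PBS. B cells of the same libraries, which were shallower, held one in 10.5% with thonzonium bromide and 27.4% with PBS. Trac itself was found in 93.3% of the members with thonzonium bromide and 84.1% with PBS, against 0.593% and 3.05% of B cells.

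The share of T cells in cycle was close in the libraries, and which was higher depended on the processing. Over all members it was 15.6% with thonzonium bromide (95% Clopper-Pearson interval 13.6 to 17.7) and 15% with PBS (13.2 to 16.9). Without mixed barcodes it was 14.0% (12.0 to 16.2) with thonzonium bromide and 16.4% (14.4 to 18.5) with PBS. With mixed barcodes kept and at least 3 CD3 UMIs asked of a T cell, it was 15.9% with thonzonium bromide and 16.3% with PBS. When T cells, mixed barcodes included, were thinned to 2000 UMIs before cycling was called, 5.46% of 1227 with thonzonium bromide and 7.07% of 1287 with PBS met the rule. This left out 36 of 1263 T cells with thonzonium bromide and 227 of 1514 with PBS as shallower, so the loss was uneven. The B cells of the same libraries, with medians of 3730.5 and 3841 UMIs, met the Mki67 and Top2a rule in 2.17% and 2.03% of cells. Cycling natural killer cells, with at least 1 Ncr1 and no CD3 UMI, were 14.9% of such cells with thonzonium bromide and 20.6% with PBS.

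Members near the threshold differed from those far above it in the markers that the rule did not use. Among T cells with 0, 1, 2, 3, 4 to 9, 10 to 29 and at least 30 Mki67 and Top2a UMIs, a UMI of Pclaf, Stmn1 or Nusap1 was found in 11.2%, 23.2%, 31.0%, 41.7%, 73.5%, 100% and 100% with thonzonium bromide. With PBS the same shares were 11.3%, 19.9%, 34.2%, 60.6%, 83.3%, 96.9% and 100%. Median depth rose over the same classes, from 5978 to 17233.5 UMIs with thonzonium bromide and from 4540 to 18148 UMIs with PBS. These classes were not thinned, so depth bears on the rise of the shares. Just outside the rule, at 1 UMI, stood 151 cells with thonzonium bromide and 206 with PBS, and just inside it, at 2 UMIs, 42 and 76 cells. Cdk1, the kinase that starts mitosis, was at 0, 14.0, 29, 149 and 228 CPM over the 5 member classes with thonzonium bromide and at 8.46, 18.8, 40.1, 98.5 and 157 CPM with PBS. Members with 2 or 3 UMIs made up 44.3% of members with thonzonium bromide and 52.4% with PBS, so the label was carried most clearly by those with at least 4. Among members with a Cd8a or Cd8b1 UMI and no Foxp3 UMI, the shares with 2 or 3 UMIs were 47.2% with thonzonium bromide and 46.5% with PBS. At least 10 UMIs were held by 28.3% of these CD8 members with thonzonium bromide and 41.2% with PBS. Over all 149 and 208 members, 65.1% with thonzonium bromide and 66.8% with PBS held at least 1 of the 3 markers. After thinning to 2000 UMIs these shares were 55.0% of 149 and 51.8% of 193 members, against 5.08% and 10.8% of B cells.

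**Figure D1:**
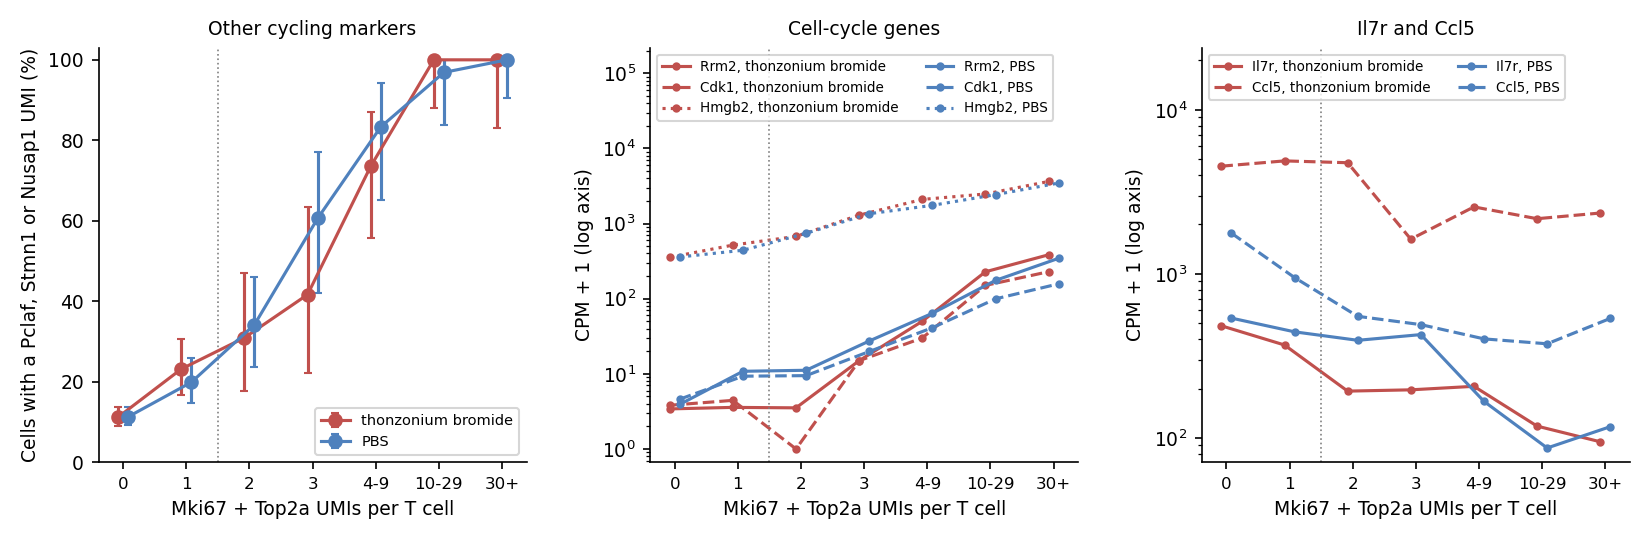
T cells without mixed barcodes by their number of Mki67 and Top2a UMIs (x axes), with thonzonium bromide and PBS. The y axes give the percent of cells with a Pclaf, Stmn1 or Nusap1 UMI (left, with 95% Clopper-Pearson intervals) and the level plus 1 CPM on a log scale of Rrm2, Cdk1 and Hmgb2 (middle) and of Il7r and Ccl5 (right), and the dotted line is the threshold of 2 UMIs. The share with a marker lies between 11.2% and 11.3% at 0 UMIs and reaches 100% at 30 UMIs or more in both libraries. Median depth also rises over these classes.

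CD8 cells were the largest split of cycling T cells in both libraries when called on all UMIs. Members with a Cd8a or Cd8b1 UMI and no Foxp3 were 143 of 197 (72.6%, interval 65.8 to 78.7) with thonzonium bromide and 124 of 227 (54.6%, 47.9 to 61.2) with PBS. Those with Foxp3, the master factor of regulatory T cells, and no Cd8 were 10 (5.08%) with thonzonium bromide and 28 (12.3%) with PBS. Both were found in 3 and 1 members, and neither in 41 (20.8%) with thonzonium bromide and 74 (32.6%) with PBS. Without mixed barcodes the CD8 shares were 71.1% with thonzonium bromide and 54.8% with PBS. Non-dividing T cells showed the same order, with CD8 shares of 46.5% for thonzonium bromide and 34.0% for PBS. Depth bears on these shares, because a deeper cell shows a Cd8 UMI more often. With each member thinned to 2000 UMIs, a Cd8 UMI remained in 64.4% (56.2 to 72.1) of 149 members with thonzonium bromide and 47.2% (39.9 to 54.4) of 193 with PBS, which left out 0 and 15 shallower members. B cells thinned alike held one in 1.02% with thonzonium bromide and 2.69% with PBS. When the whole rule was applied after thinning, mixed barcodes included, the CD8 share was 47.6% of 63 members with thonzonium bromide and 44.3% of 88 with PBS. Cells with neither Cd8 nor Foxp3 then made up 46.0% with thonzonium bromide and 52.3% with PBS, so they were the largest split in PBS.

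**Figure D2:**
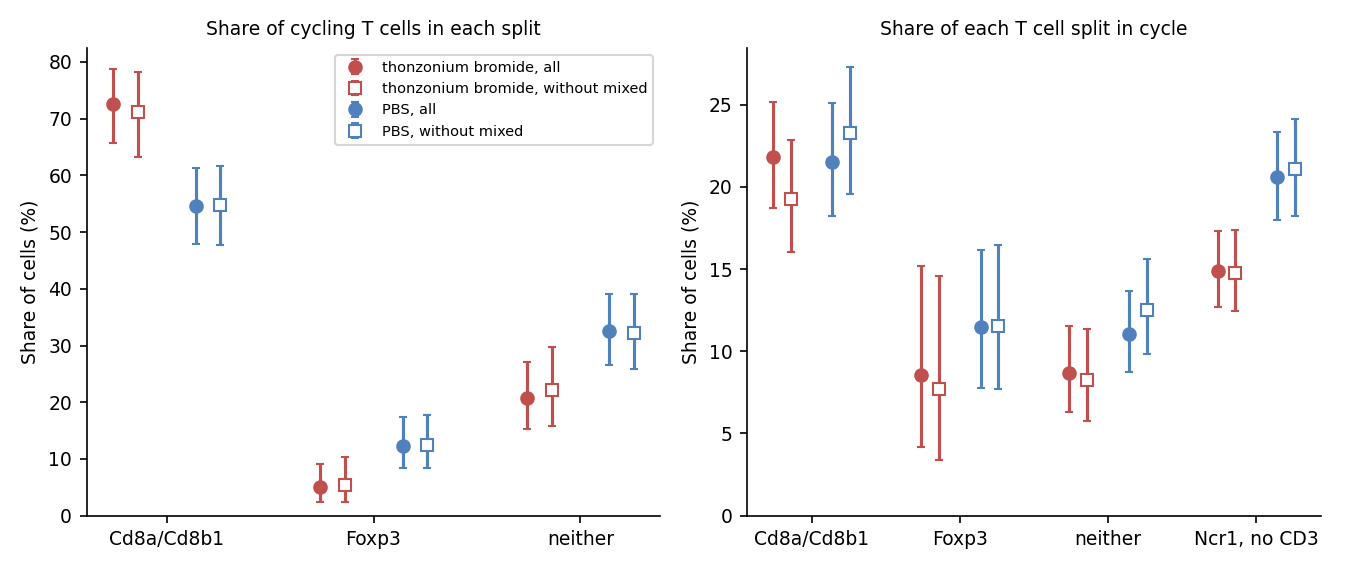
Percent of cycling T cells in each split (left) and percent of the cells of each split, and of Ncr1-positive CD3-negative cells, that met the cycling rule (right), with thonzonium bromide and with PBS; filled circles are all cells, open squares are without mixed barcodes, and lines are 95% Clopper-Pearson intervals of counting error. CD8 cells are 72.6% of cycling T cells with thonzonium bromide and 54.6% with PBS.

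Within each library, a larger share of CD8 cells than of Foxp3 cells met the cycling rule. Of CD8 T cells, 19.3% (16.1 to 22.8) met the cycling rule with thonzonium bromide and 23.3% (19.6 to 27.3) with PBS. Of Foxp3 T cells, 7.69% (3.38 to 14.6) met it with thonzonium bromide and 11.6% (7.69 to 16.5) with PBS. Members of the Foxp3 split were also shallower, with medians of 4328 and 4713.5 UMIs against 12121.5 and 12336.5 UMIs in the CD8 split, which bears on these shares. With all barcodes included and cycling called after T cells were thinned to 2000 UMIs, 7.01% of CD8 and 3.57% of Foxp3 T cells met the rule with thonzonium bromide, and 10.1% and 1.79% with PBS. With Cd8, Foxp3 and CD3 called on thinned cells too, the shares were 5.69% (3.87 to 8.03) of CD8 and 4.94% (1.36 to 12.2) of Foxp3 cells with thonzonium bromide, where the intervals overlapped, and 9.85% (7.10 to 13.2) and 1.81% (0.374 to 5.19) with PBS.

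Most members of the Foxp3 split stood at the edge of the rule. With PBS, 24 of 26 (92.3%) held only 2 or 3 Mki67 and Top2a UMIs and none held 10. With thonzonium bromide, 4 of 8 held 2 or 3 and 2 held at least 10. A UMI of Pclaf, Stmn1 or Nusap1 was found in 2 of 8 (25.0%) with thonzonium bromide and 3 of 26 (11.5%) with PBS, against 65.1% and 74.6% in the CD8 split. Foxp3 members thinned to 2000 UMIs held such a UMI in 25.0% with thonzonium bromide and 7.69% with PBS, and in PBS this was no higher than the 10.8% of thinned B cells. Summed over the Foxp3 split, Pclaf was at 449 CPM with thonzonium bromide and 20.6 CPM with PBS, while Stmn1 was at 823 CPM with thonzonium bromide and had no UMI in the 26 PBS cells. When the whole rule was applied after thinning, 4 of 63 members with thonzonium bromide and 3 of 88 with PBS were Foxp3 cells, and the order of the 2 shares turned round.

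Cells of the Foxp3 split did carry the genes of regulatory T cells. Summed over the split, Ikzf2 (Helios) was at 2171 CPM with thonzonium bromide and 2958 CPM with PBS, against 325 and 510 CPM in the CD8 split. Tnfrsf4 (OX40) was at 1927 CPM with thonzonium bromide and 1647 CPM with PBS in the Foxp3 split, against 95.1 and 80.2 CPM in the CD8 split. Ly6c2, a surface protein of effector and memory CD8 cells, ran the other way, at 1862 and 1756 CPM in the CD8 split and 18.7 and 41.2 CPM in the Foxp3 split. The genes with the largest differences in both libraries were, beside Cd8a and Cd8b1, Ly6c2, Gzmf, Klrd1, Ctsw, Nr4a2, Ifitm1, Bcl2 and Prf1 on the CD8 side and Maf, Ccr2, Tnfrsf4, Il2ra, Icos, Arl5a, Sv2c, Got1, Sdcbp2 and Ctla4 on the Foxp3 side. Il2ra, the high-affinity IL-2 receptor chain, was at 1216 CPM with thonzonium bromide and 652 CPM with PBS in Foxp3 members and at 25.6 and 47.9 CPM in CD8 members. The Foxp3 values with thonzonium bromide rest on 8 cells. Gzmf, on the CD8 side, rests on few cells in both libraries, as given below.

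The members with neither Cd8 nor Foxp3 included cells with γδ receptor transcripts, but more of them held Trac, of the α chain. Trac had a UMI in 25 of 33 (75.8%) with thonzonium bromide and 43 of 67 (64.2%) with PBS, against 0.593% and 3.05% of B cells. Trdc, the constant segment of the δ chain, had a UMI in 13 of 33 (39.4%) with thonzonium bromide and 27 of 67 (40.3%) with PBS, against 1.19% and 2.03% of B cells. In these members Trdc was at 450 CPM with thonzonium bromide and 513 CPM with PBS, and Tcrg-C1, a γ constant segment, at 122 and 77.8 CPM. Cd163l1 (SCART1), a scavenger receptor of γδ cells, was at 70.1 CPM with thonzonium bromide and 18.6 CPM with PBS. The chemokine Xcl1, which attracts cross-presenting dendritic cells, reached 701 and 726 CPM there, against 179 and 500 CPM in CD8 members. A Cd4 UMI was found in 3 of 33 members of this split with thonzonium bromide and 4 of 67 with PBS.

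The division genes were high in members of both libraries. These differences follow from the rule, since members were chosen on Mki67 and Top2a, and are given as a description. Over cycling and non-dividing T cells without mixed barcodes, 8.83% of 8231 genes were at least 1.5-fold higher in cycling cells in both libraries and 5.73% at least 1.5-fold lower. Over all members these shares were 13.2% and 6.57% of 8986 genes. Replication genes were higher past 1.5-fold in both libraries for 36 of 36, S phase histones for 15 of 16 measured and mitotic genes for 39 of 40 measured. Their median log2 ratios of cycling over non-dividing cells were 2.59, 1.97 and 4.51 with thonzonium bromide and 2.62, 2.73 and 4.44 with PBS, beside -0.01 and -0.02 over all genes. The exception was Pttg1 (securin), at 109 CPM in cycling and 113 CPM in non-dividing cells with thonzonium bromide and at 86.5 and 101 CPM with PBS. Beyond Mki67 and Top2a, the largest ratios in both libraries belonged to Hist1h3c, Hmmr, Esco2, Neil3, Aurkb, Ckap2l, Nusap1, Pclaf, Ccna2, Spc24, Knl1, Birc5 and Mxd3.

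Promoters of the replication and mitotic genes differed in the motifs they held. A pair of each is shown because the first pair holds the CHR core and the second an E2F form. For mitosis they are Cdc20, the activator of the anaphase-promoting complex, and Ccnb2, cyclin B2. For replication they are Cdc6, an origin licensing factor, and Mcm5, a subunit of the replicative helicase. Sequences are from RefSeq on GRCm38.p6, 170 bases before to 20 after the start of the gene, read 5′ to 3′ on the gene's strand. Capitals mark TTTGAA (the core of the CHR element) and CCAAT in the first pair, and TTTCCCGC, TTTGGCGC, TTTCGCGC and TTTGCCGC (forms of the E2F site) in the second, each searched on both strands. The Cdc20 window lies at chr4:118437324-118437513 on the minus strand and the Ccnb2 window at chr9:70421535-70421724 on the minus strand. The Cdc6 window lies at chr11:98907981-98908170 on the plus strand and the Mcm5 window at chr8:75109339-75109528 on the plus strand, where 2 E2F forms overlap on opposite strands.
Cdc20: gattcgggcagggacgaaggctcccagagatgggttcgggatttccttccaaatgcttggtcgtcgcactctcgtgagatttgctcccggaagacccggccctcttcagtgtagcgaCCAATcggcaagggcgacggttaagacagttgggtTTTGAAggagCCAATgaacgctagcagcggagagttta
Ccnb2: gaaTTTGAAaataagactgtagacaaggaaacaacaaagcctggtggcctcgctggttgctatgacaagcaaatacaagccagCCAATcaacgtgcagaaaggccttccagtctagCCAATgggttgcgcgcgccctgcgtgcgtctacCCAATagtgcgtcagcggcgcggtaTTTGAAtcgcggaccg
Cdc6: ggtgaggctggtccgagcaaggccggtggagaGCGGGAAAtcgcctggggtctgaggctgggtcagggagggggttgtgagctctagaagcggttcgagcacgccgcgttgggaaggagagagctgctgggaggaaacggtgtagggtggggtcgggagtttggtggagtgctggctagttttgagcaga
Mcm5: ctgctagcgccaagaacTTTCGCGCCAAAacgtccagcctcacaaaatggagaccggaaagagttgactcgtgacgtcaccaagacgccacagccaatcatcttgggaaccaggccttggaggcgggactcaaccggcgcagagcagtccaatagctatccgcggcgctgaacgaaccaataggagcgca
The Cdc20 window holds 1 TTTGAA and 2 CCAAT, and the Ccnb2 window 2 TTTGAA and 3 CCAAT.

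Over the 300 bases from 250 before to 50 after the start, TTTGAA was in 33 of 45 promoters of mitotic genes (73.3%), 5 of 39 of replication genes (12.8%) and 17.9% of all 32851 promoters. At least 2 CCAAT were in 57.8% of mitotic and 35.9% of replication promoters and 11.7% of all. An E2F form was in 13 of 39 replication promoters (33.3%), 3 of 45 mitotic promoters (6.67%) and 2.26% of all. These counts cover 43 of 49 mitotic and 31 of 36 replication genes, matched by Ensembl identifier or, where none matched, by symbol. A motif here is a run of letters, not a measured binding site.

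The 4 genes shown were close between the libraries. Cdc20 was at 39.2 CPM with thonzonium bromide and 40.2 CPM with PBS in members, against 1.41 and 1.58 CPM in non-dividing cells. Ccnb2 was at 97.0 CPM with thonzonium bromide and 107 CPM with PBS, against 1.61 and 3.83 CPM. Cdc6 was at 39.7 and 50.7 CPM in members, against 0.603 and 1.13 CPM, and Mcm5 at 137 and 124 CPM, against 25.5 and 21.8 CPM. All 4 intervals of the ratio between the libraries included 1.

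Members spread over the phases of the cycle in both libraries. Licensing transcripts (Ccne1, Ccne2, Cdc6 or Cdt1) without late mitotic ones (Ccnb1, Cdc20, Plk1 or Aurka) were found in 26.2% of members with thonzonium bromide and 30.3% with PBS. Late mitotic ones alone were found in 12.1% with thonzonium bromide and 8.17% with PBS, and both kinds in 28.9% and 20.7%. Neither kind was found in 32.9% of members with thonzonium bromide and 40.9% with PBS, and in 6 of 8 and 20 of 26 Foxp3 members. As members with thonzonium bromide were deeper, a missing transcript carries less weight in PBS, and these shares give no order of the phases between the libraries. Mitotic genes took a median of 2953 CPM of a member's UMIs with thonzonium bromide (10th to 90th percentile 928 to 16694) and 3681 CPM with PBS (849 to 17594). Replication genes took 2157 CPM (553 to 7786) with thonzonium bromide and 2125 CPM (416 to 7763) with PBS. The spread between members within a library was thus far wider than the distance between the 2 medians.

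**Figure D3:**
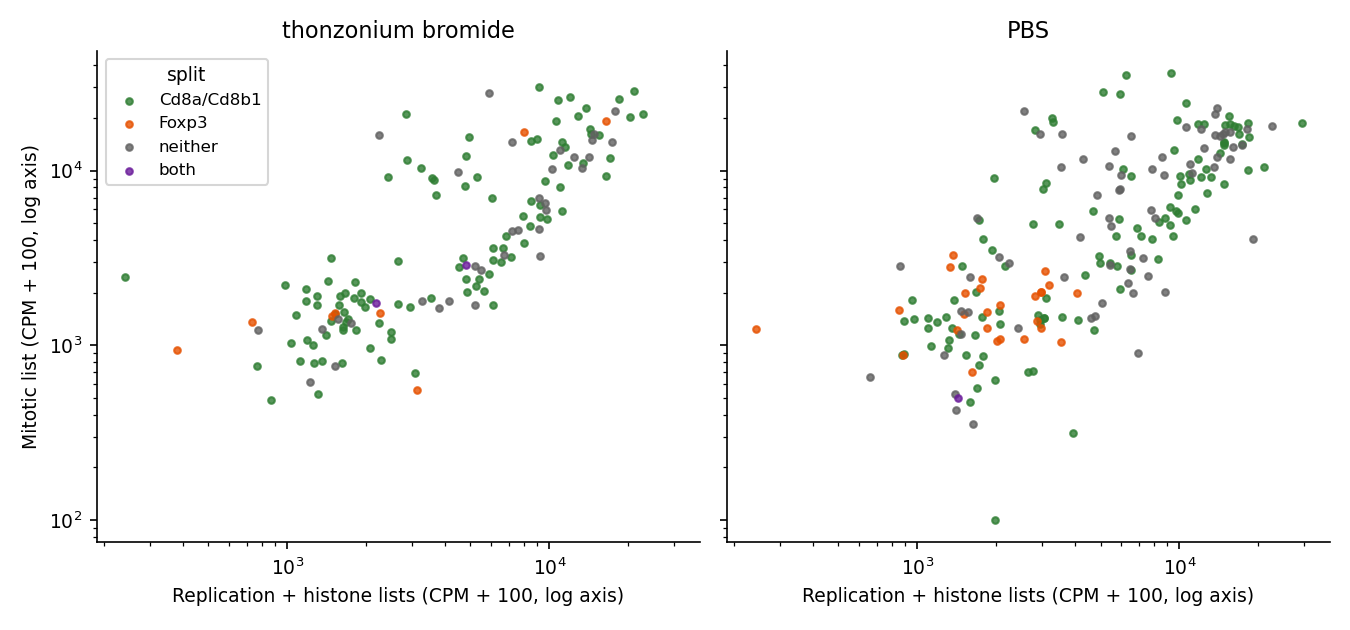
Each point is 1 cycling T cell without a mixed barcode, with the summed CPM of replication and histone genes on the x axis and of mitotic genes on the y axis, each plus 100 CPM on a log scale, for thonzonium bromide (149 cells, left) and PBS (208 cells, right), coloured by split. Both libraries show members low on both axes and members high on both, and most Foxp3 members among those low on both; the median mitotic level is 2953 CPM with thonzonium bromide and 3681 CPM with PBS.

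Cyclins and their partners were split. Of 19 measured genes of cyclin-dependent kinase control, 10 were higher past 1.5-fold in cycling cells of both libraries, beside 8.83% of all genes. Among them were Foxm1, Mybl2 and Cdk4. Cdk4, the G1 kinase, was at 131 CPM in cycling and 45.7 CPM in non-dividing cells with thonzonium bromide and at 91.7 and 42.8 CPM with PBS. Its partner Ccnd2 (cyclin D2) was lower in cycling cells, at 377 against 726 CPM with thonzonium bromide and 420 against 798 CPM with PBS. Cdkn1b (p27), a brake on the cycle, was at 108 against 162 CPM with thonzonium bromide and 148 against 225 CPM with PBS, past 1.5-fold lower in PBS alone.

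Genes of quiescence and of naive and memory cells were low in cycling cells. Of 14 quiescence genes, 9 were lower past 1.5-fold in both libraries, and of 11 naive and memory genes 9 were, beside 5.73% of all genes. Cycling cells also held a larger share of CD8 cells than non-dividing cells, 71.1% against 46.5% with thonzonium bromide and 54.8% against 34.0% with PBS. How far this make-up sets the levels of these and the following lists was not tested. Klf2, a factor that keeps T cells at rest, was at 120 CPM in cycling and 354 CPM in non-dividing cells with thonzonium bromide and at 197 and 500 CPM with PBS. Il7r, the receptor of the survival cytokine IL-7, was at 160 against 482 CPM with thonzonium bromide and 226 against 537 CPM with PBS. S1pr1, which lets T cells leave tissue, was at 25.8 against 123 CPM and 45.4 against 91.9 CPM. Slfn5, a Schlafen family gene chosen after its values were seen, was at 51.6 against 302 CPM with thonzonium bromide and 90.8 against 426 CPM with PBS.

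Glycolysis genes were higher in cycling cells for 13 of 13, and past 1.5-fold in both libraries for 7. Over all genes, 8.83% passed 1.5-fold higher in both libraries and 5.73% lower. Pgk1 was at 461 CPM in cycling and 188 CPM in non-dividing cells with thonzonium bromide and at 396 and 220 CPM with PBS. Interferon-stimulated genes were lower past 1.5-fold in both libraries for 7 of 17, for example Ifit3, at 222 against 538 CPM with thonzonium bromide and 276 against 598 CPM with PBS. Of 15 T cell identity genes, 0 passed 1.5-fold in both libraries in either direction, and of 13 checkpoint genes 2 were higher and 1 lower. Regulatory T cell genes were lower for 9 of 14, of which 7 passed 1.5-fold in both libraries, beside the lower share of Foxp3 cells among members than among non-dividing cells.

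**Figure D4:**
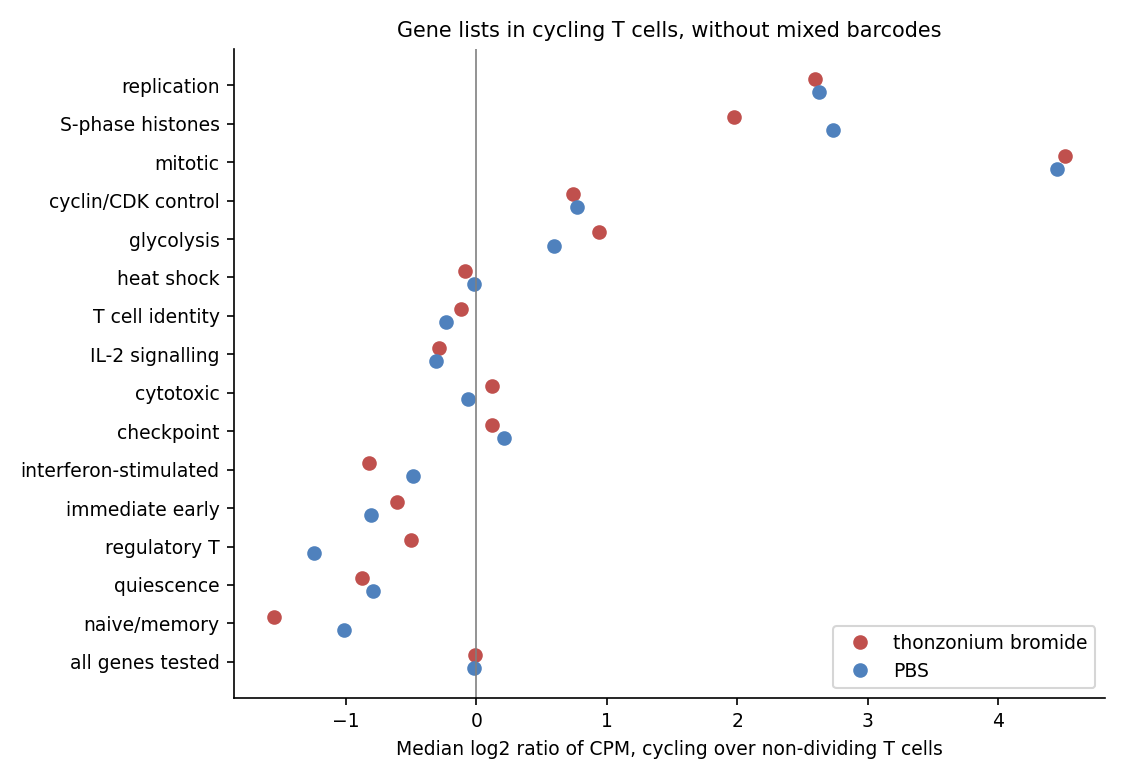
Median log2 ratio of each gene list without mixed barcodes, for cycling over non-dividing T cells with thonzonium bromide and with PBS; each point is 1 list in 1 library, the last row is all genes tested and the line at 0 is no difference. Mitotic genes stand highest at 4.51 with thonzonium bromide and 4.44 with PBS, while naive and memory genes stand at -1.55 and -1.02.

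Cycling T cells were set beside cycling natural killer cells of the same libraries. Since the sets were chosen on CD3 and Ncr1, differences in T cell identity follow from the choice, and all values here are a description. Over all barcodes, cycling natural killer cells were deeper, with medians of 17724.5 UMIs with thonzonium bromide and 15392 with PBS. Cycling T cells held 13367 and 10521. Both sets needed 2 Mki67 and Top2a UMIs, so deeper cells could pass at a lower CPM. How far this sets the levels of division genes was not tested. Here 7.85% of 7068 genes were at least 1.5-fold higher in cycling T cells in both libraries and 4.07% lower. T cell identity genes were higher past 1.5-fold for 13 of 15 and checkpoint genes for 9 of 12. Pdcd1 (PD-1) was at 163 CPM in cycling T cells and 11.2 CPM in cycling natural killer cells with thonzonium bromide and at 118 and 4.02 CPM with PBS. Replication genes were higher in cycling T cells of both libraries for 33 of 36 and past 1.5-fold for 16, with median log2 ratios of 0.70 with thonzonium bromide and 0.53 with PBS, beside 0.03 and 0.08 over all genes. Over all members, 9 of 36 passed 1.5-fold and the medians were 0.31 with thonzonium bromide and 0.55 with PBS. Cytotoxic genes were divided, with 4 of 17 higher and 8 lower. Prf1 (perforin) was at 278 CPM in cycling T cells and 928 CPM in cycling natural killer cells with thonzonium bromide and at 226 and 1031 CPM with PBS.

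Between the libraries, chemokine genes stood out in cycling T cells. Without mixed barcodes, 2.41% of 7306 genes were at least 1.5-fold higher with thonzonium bromide and 5.89% lower. Over all members these were 5.03% and 5.9% of 8530 genes, and 7 of the 10 highest genes over all members (C1qa, C1qb, C1qc, Apoe, Aif1, Tgfbi and Ms4a7) are known from macrophages and 2 (Dcn and Col3a1) from stroma. By the same rule without mixed barcodes, the 10 highest were Ccl3, Gzmk, Ccl4, Ccl5, Gzma, Lilr4b, Nr4a2, Cxcl10, Itga4 and Entpd1, and the 10 lowest Gzmd, Gzmc, Ifitm1, Gadd45g, Ifitm3, Hspa1b, Jun, Ide, Rhob and Hist1h3e.

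Ccl3, Ccl4 and Ccl5, chemokines that attract other leukocytes, were all higher with thonzonium bromide. Ccl3 was at 331 CPM with thonzonium bromide and 21.4 CPM with PBS, a ratio of 15.5. Ccl4 was at 1131 CPM with thonzonium bromide and 100 CPM with PBS (11.3-fold), and Ccl5 at 2742 and 485 CPM (5.65-fold). A few cells carried much of the Ccl3 and Ccl4 signal, since the top cell gave 24.5% of the Ccl3 UMIs and 26.1% of the Ccl4 UMIs with thonzonium bromide. The shares of cells with a UMI ran in the same direction, at 33.6% with thonzonium bromide and 11.5% with PBS for Ccl3 and at 53.7% and 32.2% for Ccl4. After thinning to 2000 UMIs, Ccl3 was found in 19.5% of members with thonzonium bromide and 3.11% with PBS, against 5.08% and 3.23% of B cells, so the PBS value was at background. Thinned Ccl4 shares were 34.2% with thonzonium bromide and 10.4% with PBS, against 6.91% and 6.45% of B cells. Thinned Ccl5 shares were 61.1% and 35.8% of members, against 5.89% and 12.9% of B cells.

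In the CD8 split alone the chemokine differences had the same direction. Of 6195 genes, 3.84% were at least 1.5-fold higher with thonzonium bromide and 6.07% lower. Ccl5 was at 3279 CPM in cycling CD8 cells with thonzonium bromide and 243 CPM with PBS, a ratio of 13.5 (12.1 to 15). Ccl3 was at 458 and 24.6 CPM (18.6-fold, 13.4 to 26.6) and Ccl4 at 1483 and 125 CPM (11.9-fold, 10.2 to 13.8). With the mixed barcodes of the CD8 split included, these ratios were 9.97 for Ccl5, 6.64 for Ccl3 and 5.65 for Ccl4. Non-dividing CD8 cells showed the same order at other levels, with Ccl5 at 6472 CPM with thonzonium bromide and 1719 CPM with PBS. Thus Ccl5 was lower in cycling than in non-dividing CD8 cells within each library, by a wider margin in PBS.

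Granzymes did not move together. Gzmk, a granzyme of memory-like and pre-exhausted CD8 cells, was at 81 CPM with thonzonium bromide and 6.55 CPM with PBS in members (12.4-fold), and a UMI of it was found in 30.9% and 2.88% of members, against 0.395% of B cells with thonzonium bromide and 0 of 197 with PBS, which allows up to 1.52%, taking 3 cells of the total as the limit for a count of 0. Gzmb, the main granzyme of effector cells, was at 1846 CPM with thonzonium bromide and 1669 CPM with PBS, and its thinned shares were 69.8% and 72.5%. Prf1 was at 278 and 226 CPM. The cytotoxic list, which also holds chemokines, had 5 of 17 genes past 1.5-fold higher with thonzonium bromide and 5 lower, beside 2.41% and 5.89% of all genes. The 5 higher were Ccl3, Ccl4, Ccl5, Gzmk and Gzma, and the 5 lower Gzmc, Gzmd, Gzme, Gzmf and Xcl1. Its median log2 ratio was 0.30, beside -0.05 over all genes, and 0.20 over all members.

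Several other granzyme values rest on few cells or on background. Gzma was at 189 CPM with thonzonium bromide and 76.0 CPM with PBS, but 1 cell held 62.8% of its UMIs with thonzonium bromide, the thinned shares ran the other way at 4.03% and 14.0%, and B cells held it in 5.89% and 18.8%. Gzmc was at 91.3 and 537 CPM in members and at 1010 and 609 CPM in B cells, so it was at background. Gzmd was at 8.25 CPM with thonzonium bromide and 65.9 CPM with PBS, and 1 cell held 62.9% of its UMIs with PBS. Gzmf was at 530 and 910 CPM, and 5 cells held 98.5% of its UMIs with thonzonium bromide and 83.2% with PBS. No difference is read from these 4 genes. Xcl1, by contrast, was spread over many cells and lower with thonzonium bromide in the CD8 split, at 179 CPM against 500 CPM with PBS (ratio 0.36), with thinned shares of 18.9% and 33.9%.

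Checkpoint genes were higher with thonzonium bromide in cycling CD8 cells for 8 of 12, and 6 of these passed 1.5-fold, while 1 gene was lower past 1.5-fold. Of all 6195 genes measured there, 3.84% passed higher and 6.07% lower. The list's median log2 ratio there was 0.59, beside -0.03 over all genes, and 0.35 in the CD8 split of all members, where 3 of 12 passed, beside 6.28% of 7210 genes higher and 6.48% lower. Pdcd1 was at 224 CPM with thonzonium bromide and 138 CPM with PBS in cycling CD8 cells (1.62-fold, 1.36 to 1.94). Tox, a factor that sustains exhausted cells, was at 170 and 97.0 CPM (1.75-fold, 1.42 to 2.16). Nr4a2, an orphan receptor induced by antigen receptor signals, was at 432 and 217 CPM (1.99-fold). Havcr2 (TIM-3) was at 132 and 85.4 CPM (1.54-fold) and Lag3 at 140 and 95.7 CPM (1.47-fold). Other T cell transcripts were higher in the same cells, with Trac at 1.35-fold (1.22 to 1.48) and Cd8b1 at 1.42-fold (1.29 to 1.56). Over members of every split, 13 of 15 T cell identity genes were higher with thonzonium bromide, 2 of them past 1.5-fold. With the mixed barcodes included, Pdcd1 (1.24-fold), Tox (1.40-fold) and Havcr2 (1.31-fold) no longer passed 1.5-fold, while Nr4a2 did (1.69-fold). B cells held almost none of these, with Pdcd1 in 0 of 506 cells with thonzonium bromide, which allows up to 0.593% by the same limit, and in 0.508% with PBS. Non-dividing CD8 cells held Tox at 179 CPM with thonzonium bromide and 68.8 CPM with PBS and Pdcd1 at 239 and 112 CPM, so these orders were not seen in cycling cells alone.

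**Figure D5:**
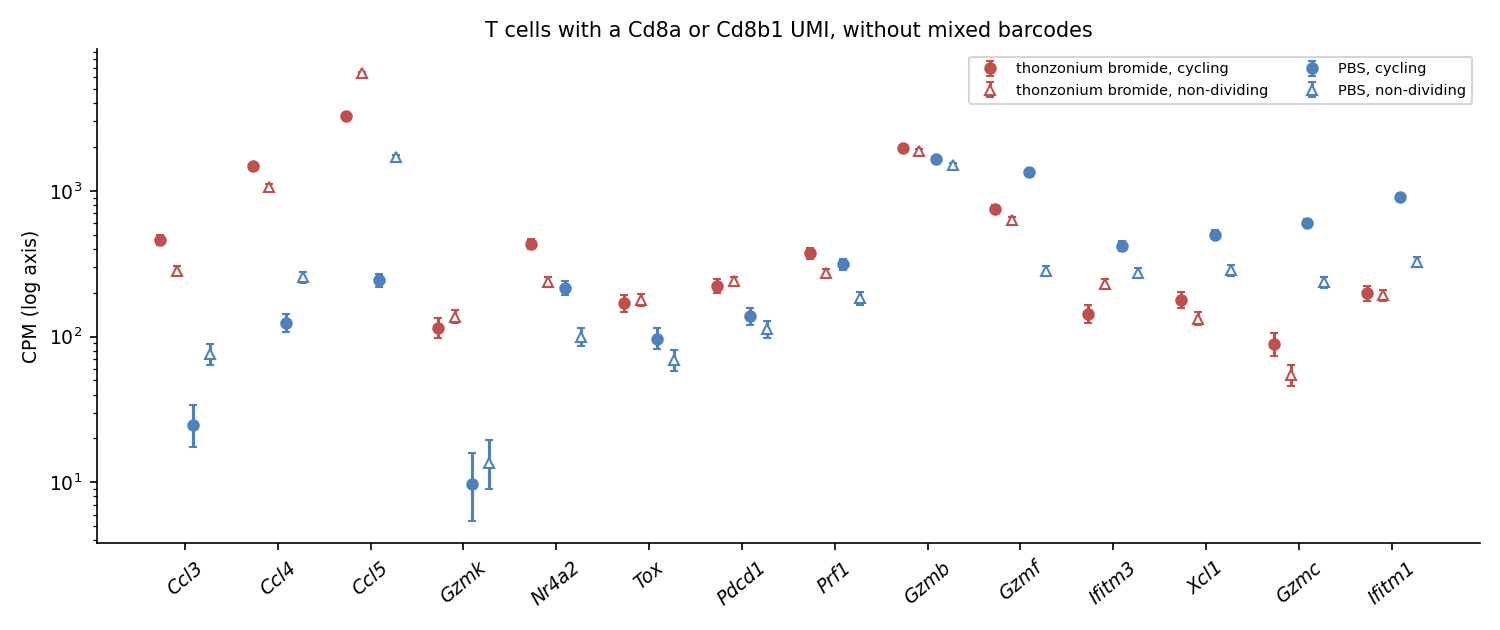
Levels in CPM (log axis) of effector, checkpoint and interferon-induced genes in CD8 T cells without mixed barcodes, cycling and non-dividing, with thonzonium bromide and PBS; points are summed levels and lines are 95% counting intervals. Ccl3, Ccl4 and Ccl5 in cycling cells stand at 458, 1483 and 3279 CPM with thonzonium bromide and at 24.6, 125 and 243 CPM with PBS.

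Among genes of other roles, Cdkn2a, which encodes the cycle inhibitors p16 and p19ARF, was at 21.1 CPM with thonzonium bromide and 5.68 CPM with PBS (41 and 13 UMIs, ratio 3.73, 1.96 to 7.58). A UMI of it was found in 26 of 149 members with thonzonium bromide and 10 of 208 with PBS. The members with thonzonium bromide were deeper, at a median of 12266 against 10547.5 UMIs, which bears on these unthinned shares. Entpd1 (CD39), which breaks down extracellular ATP, was at 63.5 and 34.9 CPM, and Itga4, the α4 integrin chain, at 173 and 95.2 CPM. Cxcl10 was at 357 CPM with thonzonium bromide and 190 CPM with PBS, but 1 cell held 41.5% of its UMIs with thonzonium bromide and a UMI was found in fewer members there, 32.9% against 51.4%.

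The interferon, heat shock and immediate early genes that passed 1.5-fold between the libraries without mixed barcodes were all lower with thonzonium bromide. Of 17 interferon-stimulated genes, 15 were below 1 in ratio but only 2 (Isg15 and Oasl1) passed 1.5-fold lower, beside 5.89% of all genes. Their median log2 ratio was -0.40, while over all members it was -0.02. Of 11 heat shock genes, 4 (Hspa1a, Hspa1b, Hspb1 and Dnajb1) passed 1.5-fold lower and 0 higher, with a median of -0.28, and over all members 2 passed lower. Of 9 immediate early genes, 2 (Fosb and Jun) passed lower and 0 higher. Over all members, 4 of 10 immediate early genes passed higher and 1 lower, beside 5.03% and 5.9% of all genes. Ifitm1, an antiviral membrane protein, was at 157 CPM with thonzonium bromide and 631 CPM with PBS, with thinned shares of 6.04% and 15.5% of members, against 3.66% and 5.38% of B cells. Immediate early genes had a median log2 ratio of -0.43 without mixed barcodes and 0.27 over all members, so their direction depended on those barcodes. Jun, a subunit of AP-1, was at 243 CPM with thonzonium bromide and 528 CPM with PBS, and in non-dividing cells at 439 and 848 CPM. Hspa1b, an inducible HSP70 chaperone, was at 131 CPM with thonzonium bromide and 315 CPM with PBS, and at 213 and 441 CPM in non-dividing cells.

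The medians of the replication and mitotic lists were close between the libraries, while histones were lower with thonzonium bromide. Of all 7306 genes without mixed barcodes, 2.41% passed 1.5-fold higher with thonzonium bromide and 5.89% lower. Replication genes had a median log2 ratio of -0.03 for thonzonium bromide over PBS there, with 2 of 36 past 1.5-fold higher and 1 lower. Mitotic genes had a median of -0.17, with 0 of 47 higher and 4 lower. Over all members these medians were -0.29 and -0.24, and in the CD8 split without mixed barcodes -0.22 and -0.24. S phase histones were lower for 17 of 19, of which 8 passed 1.5-fold, with a median of -0.49, and over all members the median was -0.60. Hist1h1e, a linker histone, was at 225 CPM with thonzonium bromide and 407 CPM with PBS (ratio 0.55, 0.49 to 0.62), and Hist1h2ae at 200 and 341 CPM (0.58, 0.52 to 0.66). Hist1h1e was also lower in non-dividing cells, at 113 CPM with thonzonium bromide and 236 CPM with PBS. Replication-dependent histone messages mostly lack a poly(A) tail, and the kit primes on poly(A), so their counts follow the tailed fraction. Of the 5 cycling markers Mki67, Top2a, Pclaf, Stmn1 and Nusap1, all were lower with thonzonium bromide, 1 of them past 1.5-fold, with a median log2 ratio of -0.20, beside -0.05 over all genes. The gene past 1.5-fold was Mki67, which the rule used, at 381 CPM with thonzonium bromide and 607 CPM with PBS. Stmn1, which it did not use, was at 787 and 793 CPM and differed least of the 5. In the CD8 split, the markers that the rule did not use were all lower with thonzonium bromide. The ratios there were 0.72 (0.65 to 0.80) for Pclaf, 0.75 (0.62 to 0.92) for Nusap1 and 0.88 (0.81 to 0.96) for Stmn1.

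T cell receptor segments, which clones inherit, were counted in the CD8 split. A Trbv segment was seen in 35 of 106 cycling CD8 cells with thonzonium bromide and 35 of 114 with PBS. Of these, Trbv13-1 was in 12 of 35 (34.3%, 19.1 to 52.2) with thonzonium bromide and 2 of 35 (5.71%, 0.700 to 19.2) with PBS. Trbv2 was in 7 of 35 with thonzonium bromide and 6 of 35 with PBS. Non-dividing CD8 cells showed Trbv13-1 in 36 of 84 (42.9%) with thonzonium bromide and 4 of 61 (6.56%) with PBS, so the segment was not more frequent in the cycling cells. Of the 31 cycling CD8 cells with a Trav segment in each library, Trav8d-2 was in 7 with thonzonium bromide and 0 with PBS, and Trav7d-2 in 6 and 0, where 0 of 31 allows up to 9.68% by the limit of 3 cells. Non-dividing CD8 cells with a Trav segment held Trav8d-2 in 14 of 90 with thonzonium bromide and 3 of 81 with PBS. They held Trav7d-2 in 10 of 90 and 0 of 81, so neither segment was seen in cycling cells alone. A segment is shared by many clones, 3' reads rarely reach it, and neither the number of clones nor that of mice can be read from these counts.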

How the data were processed

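The authors deposited whole-number UMI counts of 32285 genes by barcode for 2 libraries, written by Cell Ranger 6.1.2 per the file headers, and the submitters' processing notes also name mm10, Seurat 3.0 and R 3.5.3. The deposited barcodes held 52973138 UMIs with thonzonium bromide and 46348444 with PBS, in 6724 and 7803 barcodes. The rule kept barcodes of at least 200 genes with no more than 20% of UMIs from mitochondrial genes. Both groups came from the treatment label. From these counts, UMIs were summed per set of cells and scaled to CPM in Python 3.11.15 (scipy 1.17.1), with exact Poisson intervals for levels, exact conditional binomial intervals for ratios and Clopper-Pearson intervals for shares, all at 95%. Genes needed at least 50 UMIs over both sides, and a difference of at least 1.5-fold counted as past the fold. The ratio script was tested on simulated data. Scrublet in scanpy 1.11.5 marked 2 of 5833 barcodes with thonzonium bromide and 0 of 6419 with PBS and was judged not to have worked, so no doublets were removed by it. B cells, the background for shares, held at least 3 UMIs of Cd79a, Cd79b and Ms4a1 and no CD3. The members, the gene lists and the barcodes called mixed were chosen with earlier results of these data known. Named genes were list members and, between libraries, the 10 highest and 10 lowest ratios among genes that had 100 UMIs or more, reached 50 CPM in either library and whose interval left out 1. They were also the 15 largest ratios of cycling over non-dividing cells and the 10 largest each way of CD8 over Foxp3. Mitochondrial, ribosomal protein, haemoglobin, immunoglobulin, T cell receptor segment and sex-linked genes and unnamed gene models did not enter these ranks. Slfn5, and which list genes are shown as promoters, were chosen after values were seen.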

Additional observations from a re-analysis of the deposited data

Results flagged for a closer look

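Ccl3 and Ccl4 stood on opposite sides of non-dividing T cells in the 2 libraries, without mixed barcodes. The ratio of cycling over non-dividing T cells was 1.92 for Ccl3 with thonzonium bromide (331 and 172 CPM) and 0.178 with PBS (21.4 and 120 CPM). For Ccl4 it was 1.57 with thonzonium bromide (1131 and 720 CPM) and 0.215 with PBS (100 and 466 CPM). With 1 library in a group the difference was not tested. A single member held 24.5% of the Ccl3 UMIs and 26.1% of the Ccl4 UMIs with thonzonium bromide.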

How the results depend on the processing

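No paired analysis was possible because each group is 1 library. The CD8 share of members kept its direction under all 8 alternatives, with log2 ratios of thonzonium bromide over PBS from 0.10 to 0.42, but its counting interval, 0.05 to 0.77 over all members, took in 0 in 5 of the 8. The Foxp3 share had a log2 ratio of -1.28, which turned to 0.90 when cells were thinned to 2000 UMIs, leaving 63 and 88 members. The share of T cells in cycle, 0.06 on that scale, was -0.23 without mixed barcodes (chosen after seeing the data), -0.37 with cycling alone called on thinned cells (also chosen after) and -0.46 with all calls on thinned cells. It was also below 0 with at least 3 CD3 UMIs (-0.033), without the highest Scrublet scores (-0.15) and without B, macrophage, dendritic or neutrophil markers (-0.19). Without mixed barcodes, the 1186 genes higher in cycling than non-dividing cells became 727 and the 429 genes higher with thonzonium bromide became 176. Thinning gave 327 genes higher in cycling cells, 85 higher and 79 lower with thonzonium bromide (503 lower over all members), and medians of -0.045 (cytotoxic), 0.12 (mitotic), 0.69 (regulatory T) and 0.067 (replication). Fewer cells and UMIs were left there. Scaling each cell alike gave 715 genes higher in cycling cells, 893 lower with thonzonium bromide, and medians of -0.13 (mitotic), -0.45 (regulatory T) and -0.19 (replication). A minimum of 100 UMIs gave 221 higher and 257 lower genes. Leaving out B, macrophage, dendritic or neutrophil markers gave 158 higher genes and medians of 0.34, -0.094, -0.13 and -0.031 for the cytotoxic, mitotic, regulatory T and replication lists. Leaving out the 10% highest Scrublet scores gave 259 higher genes and medians of 0.35, -0.11 and -0.11 for the cytotoxic, regulatory T and replication lists. The replication median was -0.028 without mixed barcodes, against -0.29. With at least 3 Mki67 and Top2a UMIs the cytotoxic median was 0.064, against 0.20, and the regulatory T median 0.13, against -0.25. Equal weights of the splits gave -0.12 for mitotic genes, against -0.24, and 0.13 for regulatory T genes. The cause of these shifts was not tested.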
